A study of Homo sapiens with 8 samples.

Results

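The intervals described here are the G-quadruplex (G4) sites of human chromosome 19 in K562 and HepG2 cells. They were selected by chromosome alone, from 4 lists of G4 ChIP-seq intervals, and they number 5832 of the 65646 intervals in those lists. K562 cells derive from a chronic myelogenous leukemia and HepG2 cells from a hepatocellular carcinoma, so each stands for 1 tumour and its culture. G4 ChIP-seq recovers chromatin fragments bound by an antibody to folded G4s and sequences them beside an input library without the antibody. The sample list has 3 G4 ChIP libraries, given as technical replicates, and 1 input library for each line, whereas the study merged 8 K562 and 9 HepG2 replicates into the lists. The study describes 3 independent experiments per line with 2 to 3 technical replicates each, so these 8 and 9 replicates are not all independent. Its methods add that earlier G4 ChIP-seq data of K562 cells were also taken into account, without saying which replicates they are. Line and experiment therefore cannot be told apart in contrasts between the K562 and HepG2 lists. The high-confidence lists required detection in 5 of 8 replicates (K562) or 6 of 9 (HepG2), and the lower-confidence lists required 2. The labels give no drug or genetic change for either line.

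A G4 is a 4-stranded structure that guanine-rich DNA can form when runs of guanines stack on one another as planar tetrads. The linking bases between the runs form loops. In chromatin such structures have been found mainly in open regions, many of them in guanine-rich promoters just upstream of transcription start sites (TSSs). Chromosome 19 is known for its many genes and its high GC content, and it carries large clusters of related genes. In the reference used here it held 1436 protein-coding genes, 7.25% of the total, on 1.95% of the sequenced bases. It ranked 1 among the chromosomes in gene density, and 48.4% of its bases were G or C.

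Sequence motifs are described with 1 definition unless another is named. The 4 G-runs of a G4 motif must each be 3 or more bases long, with loops of 1 to 7 bases between them, and both strands were searched. In consecutive 200 bp windows of chromosome 19 such a motif was present in 5.72% of 279040 windows, and in the 200 bp just upstream of protein-coding TSSs it was present in 24.8% of 5720 windows. Most high-confidence intervals held no such motif, 675 of 1050 in K562 and 603 of 779 in HepG2. Of the 511 K562 intervals that were high-confidence in both lines, 315 held none. These counts depend on the definition. With loops of up to 12 bases, 51.7% of K562 and 36.7% of HepG2 high-confidence intervals held a motif. With G-runs of 2 or more bases the shares were 90.7% and 84.5%. Over all chromosomes, the study reports that most sites contained sequence able to form G4s in an in vitro assay. The stretches printed next are examples picked from the widest or most motif-rich intervals of each overlap class, and are not typical of it. All are read 5′ to 3′ on the guanine-rich strand of hg19, outside annotated untranslated regions, with complete G4 motifs in capitals. The first 2 come from intervals that were high-confidence in both lines. ATP8B3 encodes a phospholipid-transporting ATPase, and its K562 interval (chr19:1812266-1812905) held 7 motifs, a number that no other common K562 interval exceeded, of which 4 fall in the stretch shown. The PALM stretch, chr19:703961-704260, lies between genes, 4937 bp upstream of the nearest coding start (interval centre), and PALM encodes a membrane-bound protein of cell shape.
ATP8B3, chr19:1812276-1812575, plus strand: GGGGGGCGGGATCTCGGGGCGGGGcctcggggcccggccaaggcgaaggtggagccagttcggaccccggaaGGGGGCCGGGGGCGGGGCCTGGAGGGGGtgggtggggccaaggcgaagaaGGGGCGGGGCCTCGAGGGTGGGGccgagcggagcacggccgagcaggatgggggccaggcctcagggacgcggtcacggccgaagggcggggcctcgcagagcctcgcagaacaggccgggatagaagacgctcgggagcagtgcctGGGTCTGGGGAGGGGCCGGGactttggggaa
PALM, chr19:703961-704260, plus strand: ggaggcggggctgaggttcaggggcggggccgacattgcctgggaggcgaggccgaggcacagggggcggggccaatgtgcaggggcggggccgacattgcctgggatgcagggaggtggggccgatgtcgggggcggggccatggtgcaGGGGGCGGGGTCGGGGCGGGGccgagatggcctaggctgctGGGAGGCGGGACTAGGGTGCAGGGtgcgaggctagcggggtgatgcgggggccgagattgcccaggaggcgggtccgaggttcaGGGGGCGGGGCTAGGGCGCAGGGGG

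The next 2 come from intervals found in K562 and absent from both HepG2 lists. The ARHGAP45 interval (a GTPase-activating protein gene) held 6 motifs, a number that no K562-only interval exceeded, and lay within 1 kb upstream of an annotated start inside that gene. The RYR1 stretch comes from an intron of RYR1, the calcium-release channel of skeletal muscle, and its interval's centre was 30629 bp upstream of the nearest coding-gene TSS, a start annotated inside RYR1. It shows short G-runs at intervals too long for the motif definition, and only 1 complete motif.
ARHGAP45, chr19:1082171-1082470, plus strand: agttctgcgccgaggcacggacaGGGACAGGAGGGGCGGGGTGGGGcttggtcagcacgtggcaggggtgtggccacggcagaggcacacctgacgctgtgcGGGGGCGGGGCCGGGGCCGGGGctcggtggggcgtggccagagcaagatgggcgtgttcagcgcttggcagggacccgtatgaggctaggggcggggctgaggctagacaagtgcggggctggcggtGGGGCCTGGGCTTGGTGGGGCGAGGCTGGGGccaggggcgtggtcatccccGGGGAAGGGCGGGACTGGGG
RYR1, chr19:38997810-38998109, plus strand: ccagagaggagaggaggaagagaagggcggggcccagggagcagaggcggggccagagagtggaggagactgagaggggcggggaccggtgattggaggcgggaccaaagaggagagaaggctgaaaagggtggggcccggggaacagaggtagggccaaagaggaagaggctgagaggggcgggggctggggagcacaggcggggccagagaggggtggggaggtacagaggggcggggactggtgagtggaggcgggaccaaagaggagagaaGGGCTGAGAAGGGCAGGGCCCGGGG

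The last 3 come from intervals found in HepG2 and absent from both K562 lists. The CDC34 interval, 7462 bp upstream of that ubiquitin-conjugating enzyme gene, held 3 motifs, a number that no HepG2-only interval exceeded. SLC27A5 encodes the bile acid coenzyme A ligase of liver, and C3 the central complement component secreted by hepatocytes. Neither of these promoter intervals held a complete motif anywhere in its length.
CDC34, chr19:524085-524384, minus strand: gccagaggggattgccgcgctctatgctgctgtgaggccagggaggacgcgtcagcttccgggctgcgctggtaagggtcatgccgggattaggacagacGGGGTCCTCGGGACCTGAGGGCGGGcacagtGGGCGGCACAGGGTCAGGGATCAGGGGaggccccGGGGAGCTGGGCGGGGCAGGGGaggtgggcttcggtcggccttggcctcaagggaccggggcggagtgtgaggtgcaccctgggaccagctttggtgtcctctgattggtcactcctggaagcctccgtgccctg
SLC27A5, chr19:59023360-59023557, minus strand: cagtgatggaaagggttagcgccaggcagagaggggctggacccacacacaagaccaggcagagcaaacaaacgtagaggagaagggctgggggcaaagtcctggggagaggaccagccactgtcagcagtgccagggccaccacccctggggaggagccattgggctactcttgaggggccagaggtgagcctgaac
C3, chr19:6720722-6720956, minus strand: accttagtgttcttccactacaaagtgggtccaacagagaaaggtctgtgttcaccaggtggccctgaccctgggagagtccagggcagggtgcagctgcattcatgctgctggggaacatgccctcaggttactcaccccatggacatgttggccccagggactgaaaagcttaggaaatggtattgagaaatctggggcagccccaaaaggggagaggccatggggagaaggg

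The printed sequences differ in how their guanines are arranged. The PALM stretch holds 7 non-overlapping copies of the 9-mer GGGGCGGGG, and the ATP8B3, ARHGAP45 and RYR1 stretches hold 3 each, while the CDC34, SLC27A5 and C3 stretches hold 0. This 9-mer supplies 2 of the 4 runs of a G4 motif, so the counts of the 9-mer and of the motif overlap. It was chosen for counting after these sequences had been seen. Stretches of other named intervals break this pattern. The HepG2-only PEG3 stretch held 2 copies, while the K562-only LYL1 stretch and those of TOMM40 and FBXL12, high-confidence in both lines, held 0.

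Each of the 4 lists was denser on chromosome 19 than on any other nuclear chromosome. The K562 high-confidence list placed 1050 of 9205 intervals (11.4%) there, which is 18.8 per Mb of sequenced bases against 2.91 per Mb over the other chromosomes. The HepG2 high-confidence list placed 779 of 8805 (8.85%), or 14.0 per Mb against 2.85. Of the lower-confidence intervals, 1965 of 19249 in K562 and 2038 of 28387 in HepG2 were on chromosome 19, at 35.2 and 36.5 per Mb against 6.16 and 9.39. All 1050 and 779 high-confidence intervals lay inside lower-confidence intervals of the same line.

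Counted per gene, the excess was smaller and differed between the lists. K562 had 73.1 high-confidence intervals per 100 protein-coding genes on chromosome 19 against 44.4 elsewhere, and HepG2 had 54.2 against 43.5. At lower confidence K562 had 137 per 100 coding genes against 93.9, and HepG2 had 142 against 143. Chromosomes 17 and 22, which are also rich in genes, had 51.3 and 66.4 K562 high-confidence intervals per 100 coding genes, and 63.4 and 55.4 HepG2 ones. At high confidence the K562 density on chromosome 19 was above both by this measure and the HepG2 density below both. At lower confidence K562 had 106 on chromosome 17 and 223 on chromosome 22, and HepG2 had 222 and 208, so in neither line did chromosome 19 lead. Because the lists carry no replicate values, no spread stands behind these densities.

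More genes of chromosome 19 carried an interval at their start. A high-confidence K562 interval touched the 1 kb upstream of a TSS of 600 of the 1436 protein-coding genes (41.8%), against 6116 of 18384 (33.3%) on the other chromosomes. The odds ratio was 1.44 (95% interval 1.29 to 1.61, two-sided Fisher's exact test, adjusted p = 2.98e-10). In HepG2 the counts were 507 genes (35.3%) against 28.3% elsewhere, with an odds ratio of 1.38 (1.23 to 1.55, Fisher's exact test, adjusted p = 7.00e-08). Both lines marked 430 of these genes (29.9%, against 22.4% on the other chromosomes), and neither line marked 526 at any confidence (36.6% against 45.7%). High confidence in K562 with no HepG2 interval at all was found for 58 genes (4.04% against 3.12%), and the reverse for 26 (1.81% against 2.22%). Neighbouring genes can share an interval or a promoter, so genes are not independent of one another in these tests.

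**Figure D1:**
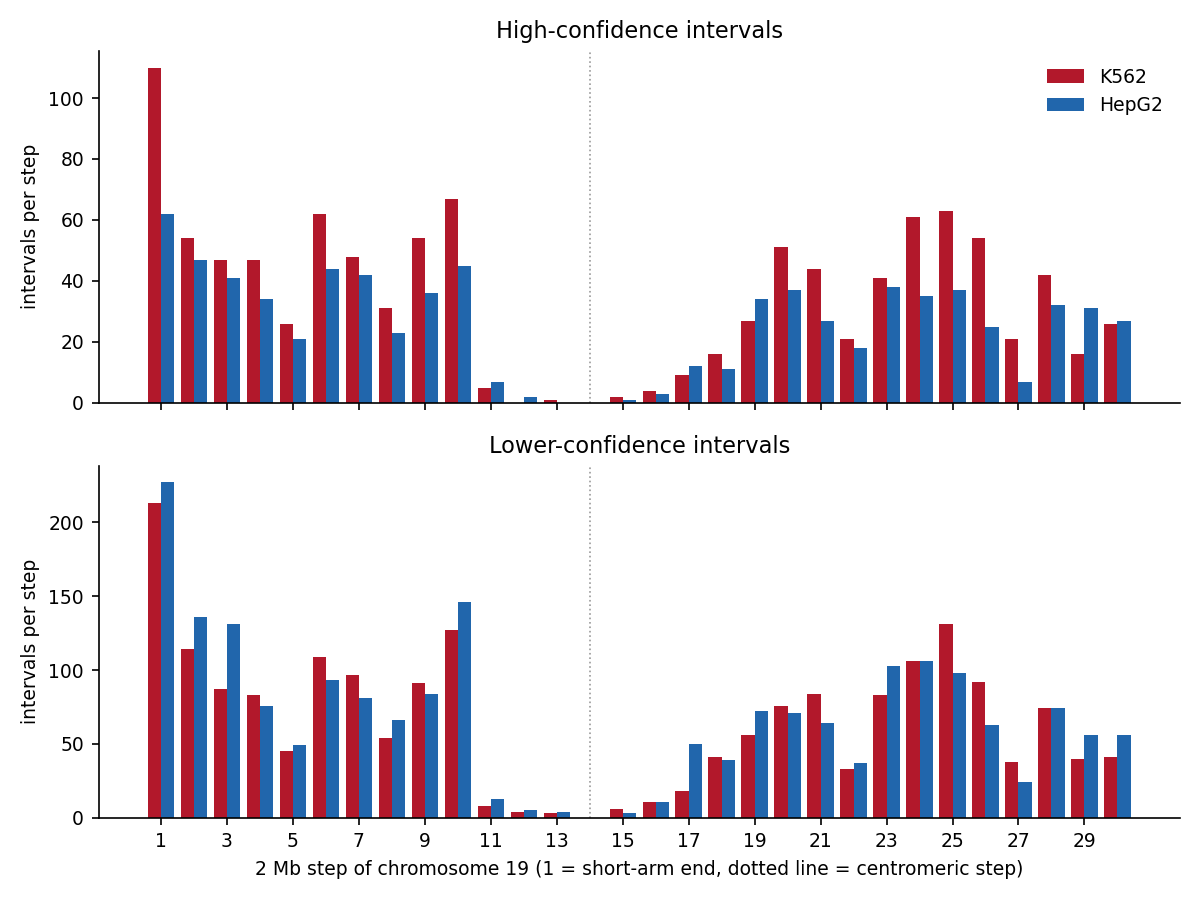
Intervals per 2 Mb step of chromosome 19, numbered from the end of the short arm, for the high-confidence lists (upper) and the lower-confidence lists (lower) of K562 (red) and HepG2 (blue). Bars are counts, the dotted line marks the step at the centromeric gap, step 1 is the fullest in all 4 lists (110, 62, 213 and 227 intervals), and steps 11 to 16 hold few intervals in both lines.

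In 2 Mb steps the intervals were unevenly spread in both lines. The first step from the end of the short arm was the fullest in each list, with 110 K562 and 62 HepG2 high-confidence intervals and 213 K562 and 227 HepG2 lower-confidence ones. This step had 70 protein-coding genes and a GC content of 56.9%, the highest of the 30 steps. In K562 it was followed by step 10 (67) and step 25 (63), and in HepG2 by step 2 (47) and step 10 (45). From step 11 to step 16, on both sides of the centromere, no step exceeded 5 K562 or 7 HepG2 high-confidence intervals, and these steps held between 0 and 17 coding genes each.

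The counts followed gene number and GC content across the 28 steps with at least 50% of their bases sequenced. Spearman's correlation with the number of coding genes was 0.758 for K562 and 0.739 for HepG2 high-confidence intervals, and Pearson's r was 0.751 and 0.785. With GC content Spearman's correlation was 0.916 and 0.819 (r = 0.893 and 0.863), and between the 2 lines it was 0.871 (r = 0.898). These are descriptions over steps of 1 chromosome that share lists and base composition, so no p-value is given. K562 had more high-confidence intervals than HepG2 in 23 steps and fewer in 6, while at lower confidence HepG2 had more in 15 steps and K562 in 11.

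Both arms took part. The short arm held 552 K562 and 404 HepG2 high-confidence intervals, 22.6 and 16.5 per Mb, and the long arm held 498 and 375, or 15.9 and 11.9 per Mb. The share of promoter intervals, defined in the next paragraphs, was 67.0% on the short arm (95% Wilson interval 63.0 to 70.8) and 72.7% (68.6 to 76.4) on the long arm in K562. In HepG2 it was 67.1% (62.4 to 71.5) and 74.7% (70.0 to 78.8). G4 motifs were present in 36.8% and 34.5% of the K562 and 24.5% and 20.5% of the HepG2 intervals of the short and long arm, with overlapping confidence intervals. Of the coding genes, 49.1% of 619 on the short arm and 36.2% of 817 on the long arm carried a K562 high-confidence interval, and 40.4% and 31.5% a HepG2 one.

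The 2 lines shared many of their high-confidence intervals. An interval is called common if it overlaps a high-confidence interval of the other line by at least 1 bp, weak in the other line if it overlaps only a lower-confidence one, and cell-line-only if it overlaps neither. On chromosome 19, 511 K562 intervals (48.7%) were common, 225 (21.4%) weak in HepG2 and 314 (29.9%, 95% Wilson interval 27.2 to 32.7) K562-only. Over the whole K562 list these classes took 51.1%, 24.5% and 24.4%. In HepG2, 509 intervals (65.3%) were common, 88 (11.3%) weak in K562 and 182 (23.4%, 20.5 to 26.5) HepG2-only, against 53.7%, 13.4% and 32.9% over the whole list. K562-only intervals thus took a larger share and HepG2-only intervals a smaller share here than over all chromosomes. Because the chromosome was chosen with this balance known, it is given as a description with no test. On chromosome 17 the K562-only share was 18.3% and the HepG2-only share 40.1%, and on chromosome 22 they were 39.7% and 38.8%.

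The size of the cell-line-only share depended on how overlap was defined. When 50% of both intervals had to be covered, 43.9% of K562 and 42.5% of HepG2 intervals were cell-line-only. When the other line's lower-confidence list was ignored, the shares were 51.3% and 34.7%.

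**Figure D2:**
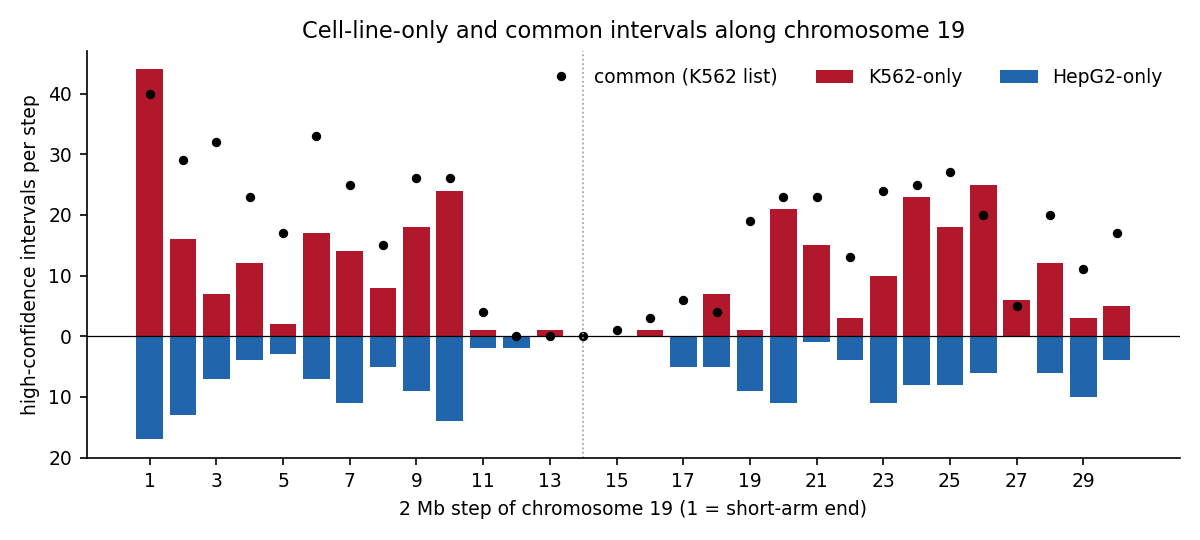
High-confidence intervals per 2 Mb step of chromosome 19 that were K562-only (red bars, upward) or HepG2-only (blue bars, drawn downward, counts positive), with the common intervals of the K562 list as black points and a dotted line at the centromeric step. K562-only intervals exceed HepG2-only intervals in 19 of 30 steps and most in step 1 (44 against 17), and the balance turns in 8 steps, among them steps 19 and 29.

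Along the chromosome, K562-only intervals outnumbered HepG2-only intervals in 19 steps, HepG2-only intervals were ahead in 8, and 3 steps were equal. The widest gaps were in step 1, with 44 K562-only against 17 HepG2-only intervals, and in step 26, with 25 against 6. The balance was the other way round in step 19 (1 against 9) and step 29 (3 against 10). In steps 1 and 26 K562-only intervals also outnumbered the common intervals of the K562 list, of which there were 40 and 20. No difference between overlap classes in their short-arm share passed the test. Of the common K562 intervals 52.8% were on the short arm against 52.2% of the K562-only ones (odds ratio 1.02, Fisher's exact test, adjusted p = 0.926), and in HepG2 the shares were 53.4% and 51.6% (odds ratio 1.07, adjusted p = 0.926). K562-only and HepG2-only intervals compared directly gave an odds ratio of 1.02 (0.710 to 1.48, Fisher's exact test, adjusted p = 0.926), an interval that leaves room for differences in either direction.

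Common and cell-line-only intervals differed most in where they lay relative to genes. An interval was counted at a promoter when its centre fell in the 1 kb upstream of any annotated TSS, coding or not. By this rule 79.6% of the whole K562 list was at a promoter. That is well above the share the study reports with its own annotation, and the reason was not tested. In K562, 433 of 511 common intervals (84.7%) were at a promoter against 144 of 314 K562-only intervals (45.9%), an odds ratio of 6.55 (4.72 to 9.10, Fisher's exact test, adjusted p = 2.99e-31). In HepG2 it was 429 of 509 (84.3%) against 59 of 182 (32.4%), an odds ratio of 11.2 (7.56 to 16.5, Fisher's exact test, adjusted p = 1.55e-36). The common intervals of the 2 lists are largely the same loci, so these results are not independent of each other. All adjusted p-values of class comparisons are Benjamini-Hochberg values over 9 tests, and they describe these lists, since neighbouring intervals are not independent.

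Introns held much of the remainder. Of the K562-only intervals 32.8% lay in introns and 8.28% between genes, and of the HepG2-only intervals 42.9% and 12.1%, whereas 7.44% of the common K562 intervals were intronic and 4.11% intergenic. Coding exons held 12 K562-only and 5 HepG2-only intervals. The median distance from an interval's centre to the nearest TSS was 96.0 bp for common K562 intervals and 516 bp for K562-only ones, and 110 bp and 1715 bp in HepG2. Intervals weak in the other line lay in between in promoter share, with 68.9% in K562 and 71.6% in HepG2.

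**Figure D3:**
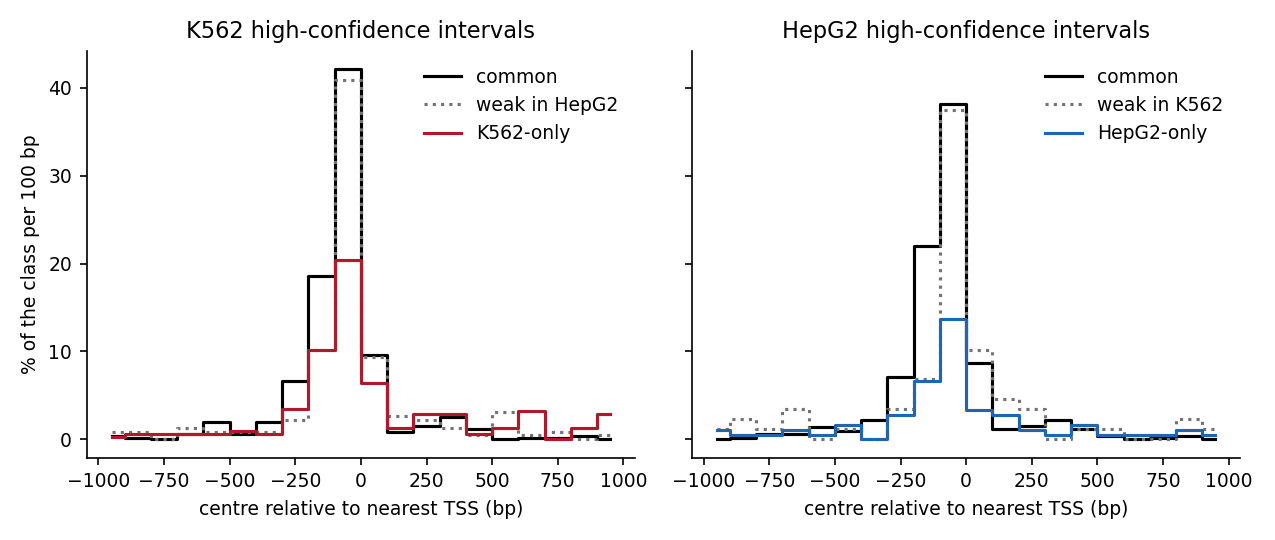
Position of the centres of high-confidence chromosome 19 intervals relative to the nearest TSS, in 100 bp bins as a percentage of the class, for K562 (left) and HepG2 (right). The bin just upstream of the TSS holds 42.1% of the common K562 and 38.1% of the common HepG2 intervals and stands lower in the cell-line-only classes, coloured red and blue.

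Close to a TSS most intervals were centred on its upstream side, the common ones more often. Of the intervals centred within 1 kb of a TSS, the common ones had a median position of -70.0 bp in K562 and -82.0 bp in HepG2, upstream of the start. K562-only intervals had a median of -45.0 bp and HepG2-only intervals one of -52.0 bp. The upstream side held 81.6% of the common and 63.0% of the K562-only intervals near a TSS, and 82.3% and 69.3% in HepG2, shares that were not tested. Common intervals were also wider, with a median of 254 bp against 162 bp for K562-only ones, and 217 bp against 141 bp in HepG2. A wider interval has more room to share 1 bp with another, so the class definition itself bears on width, and its part was not tested.

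Set against each other, the cell-line-only intervals of the 2 lines differed in both location and sequence. A promoter held 45.9% of the K562-only and 32.4% of the HepG2-only intervals, an odds ratio of 1.77 (1.21 to 2.59, Fisher's exact test, adjusted p = 0.00608). With TSSs of protein-coding genes alone the odds ratio was 1.26 (exact p = 0.301), and with 50% of both intervals required for overlap it was 1.10 (exact p = 0.517). On the other chromosomes the promoter shares were 55.7% and 29.0%, so this contrast was not particular to chromosome 19. The sequence difference was larger. A complete G4 motif was present in 107 of 314 K562-only intervals (34.1%) and in 9.34% of 182 HepG2-only intervals, an odds ratio of 5.02 (2.89 to 8.71, Fisher's exact test, adjusted p = 6.11e-10). On the other chromosomes these shares were 26.8% and 9.21%, so a contrast of this direction was not confined to chromosome 19. In a 200 bp window around each centre, which gives every interval the same room, the motif shares were 39.5% and 13.2% (odds ratio 4.30, 2.64 to 6.98). The 2 sets were screened unequally. K562-only intervals had to miss a HepG2 lower-confidence list of 28387 intervals, and HepG2-only intervals a K562 list of 19249. With the lower-confidence lists ignored, the motif odds ratio was 5.34 and the promoter odds ratio 1.51. The median GC content was 68.5% in K562-only and 60.8% in HepG2-only intervals, a difference that moves with the motif share and whose part in it was not tested.

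**Figure D4:**
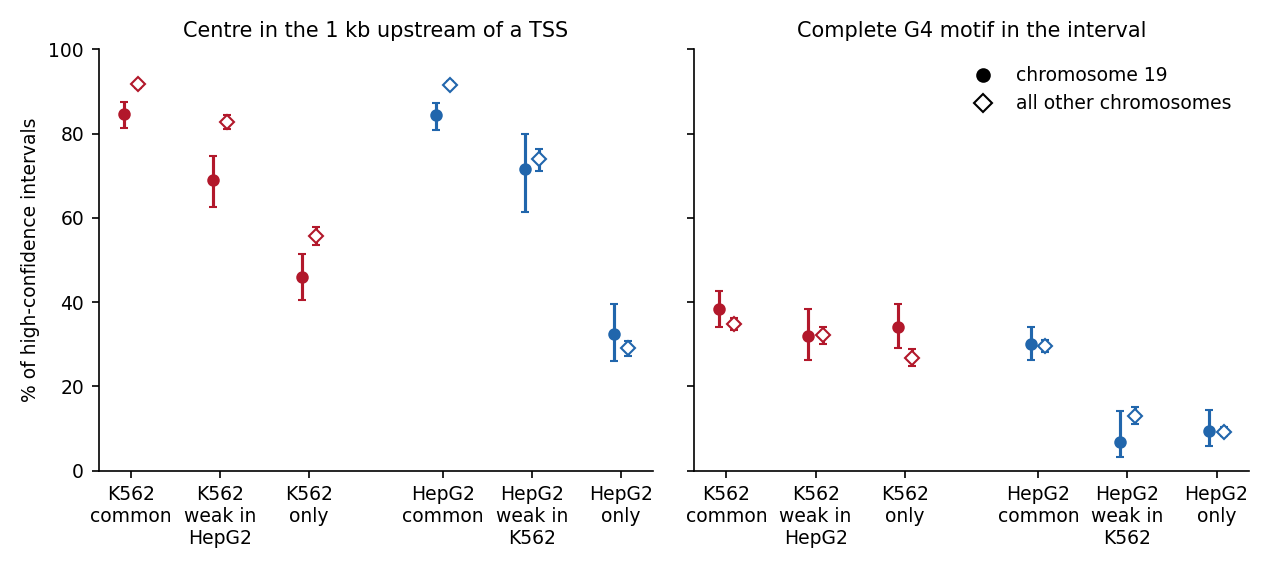
Share of high-confidence intervals at promoters, with the centre at most 1 kb upstream of a start (left), and holding a complete G4 motif (right) by overlap class in K562 (red) and HepG2 (blue), on chromosome 19 (filled circles) and on all other chromosomes (open diamonds), with 95% Wilson intervals. Common K562 intervals of chromosome 19 were at promoters in 84.7% against 91.7% elsewhere, and HepG2-only intervals held a motif in 9.34%.

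Within a line, the motif comparison took different directions. HepG2 common intervals held a motif more often than HepG2-only ones, 30.1% against 9.34% (odds ratio 4.17, 2.45 to 7.12, Fisher's exact test, adjusted p = 8.41e-09), and this was also so in 200 bp windows (28.9% against 13.2%, odds ratio 2.67). K562 common intervals held one in 38.4% and K562-only intervals in 34.1%, an odds ratio of 1.20 (0.897 to 1.61, Fisher's exact test, adjusted p = 0.351) that did not pass the test. With equal room the order was the reverse. In 200 bp windows the shares were 29.2% for common and 39.5% for K562-only intervals (odds ratio 0.631, 0.469 to 0.848, exact p = 0.00234). Over 50 bp width classes the Mantel-Haenszel odds ratio was 0.548 (95% interval 0.383 to 0.783). In the band of 300 bp and over, 32 of 40 K562-only intervals (80.0%) and 109 of 184 common ones (59.2%) held a motif, while under 100 bp it was 10.5% and 7.69%.

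**Figure D5:**
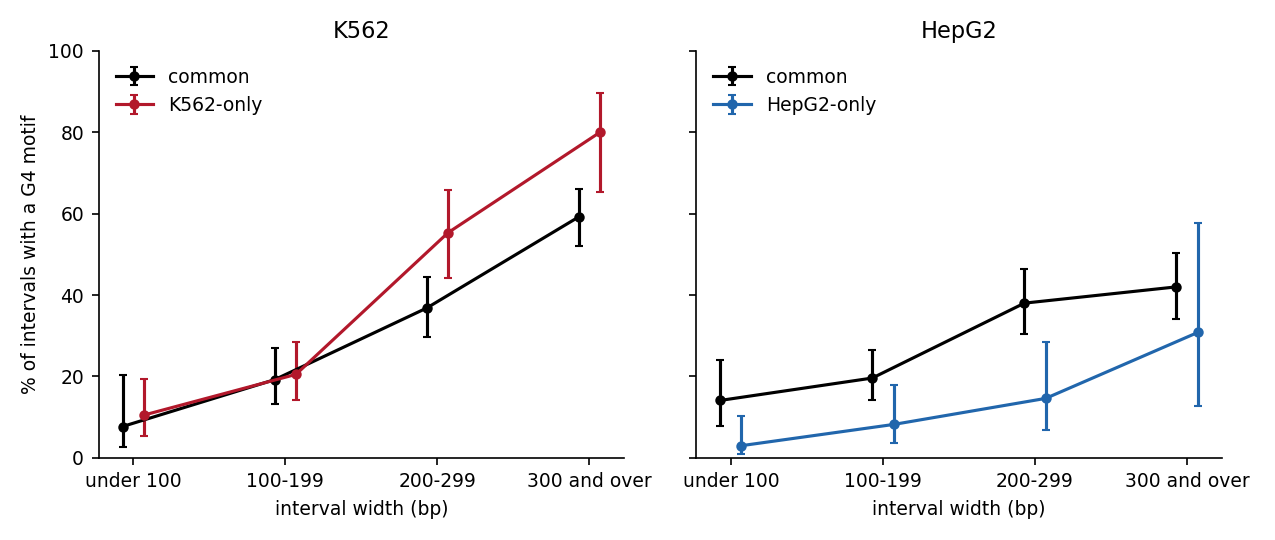
Share of high-confidence chromosome 19 intervals holding a complete G4 motif by interval width (bp), for common (black) and cell-line-only (coloured) intervals of K562 (left) and HepG2 (right), with 95% Wilson intervals. The share rises with width in each class, K562-only intervals reach 80.0% at 300 bp and over against 59.2% of common ones, and HepG2-only intervals stay below common ones in every band, with 13 intervals in the widest.

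The 9-mer seen in the printed stretches showed the same contrast between the lines. In 200 bp windows it was present in 1.10% of chromosome 19 as a whole and in 18.9% of the windows upstream of coding TSSs. It was present in 34.4% of windows on K562 common intervals, 34.4% on K562-only intervals and 35.6% on HepG2 common intervals, but in 12.6% (8.57 to 18.2) on HepG2-only intervals. Outside promoters the 9-mer was present around 34.1% of K562-only and 9.76% of HepG2-only centres. At least 2 copies on 1 strand were found in 39 K562-only intervals (12.4%) and in 3 HepG2-only intervals (1.65%). For common intervals and those weak in the other line, these shares were 15.9% and 15.1% in K562 and 11.8% and 0% in HepG2. The most copies were 11, in a K562 interval weak in HepG2, against 10 in a common interval. Since the 9-mer was chosen from these intervals, its shares are a description.

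Motifs had no preferred strand of the chromosome. Of the K562 high-confidence intervals 187 held motifs on the plus strand alone, 163 on the minus strand alone and 25 on both, and in HepG2 these counts were 83, 87 and 6. By the main definition most intervals held none, 675 in K562 and 603 in HepG2, and 43 and 15 held 3 or more.

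The intervals of chromosome 19 differed from those elsewhere in how many lay at promoters. In K562, 732 of 1050 (69.7%) were at a promoter against 80.9% of 8155 on the other chromosomes, an odds ratio of 0.543 (0.471 to 0.627, Fisher's exact test, adjusted over 6 tests p = 2.95e-15). This held among common intervals (84.7% against 91.7%, odds ratio 0.506) and among K562-only ones (45.9% against 55.7%, odds ratio 0.674). In HepG2 the shares were 70.7% and 68.0% (odds ratio 1.14, 0.967 to 1.33, Fisher's exact test, adjusted p = 0.151). Within the HepG2 common class, however, the share was lower here, 84.3% against 91.6% (odds ratio 0.494, exact p = 5.78e-07). Over the 3 overlap classes the Mantel-Haenszel odds ratio was 0.749 (95% interval 0.617 to 0.909), and both of these values were computed after the pooled one was seen. Among HepG2-only intervals the share was 32.4% against 29.0% (odds ratio 1.18, exact p = 0.354), and among those weak in K562 it was 71.6% against 73.9% (odds ratio 0.892, exact p = 0.617). The HepG2 pooled value combines that lower share with a larger proportion of common intervals on this chromosome, 65.3% against 52.8% elsewhere. On chromosomes 17 and 22 the K562 promoter shares were 81.3% and 72.1%, and the HepG2 ones 62.2% and 56.2%.

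Motif shares were close to those elsewhere over all intervals and higher away from promoters. In K562, 35.7% of intervals held a motif against 32.2% on the other chromosomes (odds ratio 1.17, Fisher's exact test, adjusted p = 0.0344), and with equal 200 bp windows the odds ratio was 1.03 (exact p = 0.678). In HepG2 it was 22.6% against 20.5% (odds ratio 1.13, Fisher's exact test, adjusted p = 0.164). Outside promoters the K562 share was 106 of 318 (33.3%) against 22.1% elsewhere (odds ratio 1.76, 1.36 to 2.29, exact p = 3.70e-05), and the HepG2 share was 44 of 228 (19.3%) against 10.6% (odds ratio 2.03, 1.42 to 2.88, exact p = 1.80e-04). At promoters the odds ratios were 1.10 (exact p = 0.236) and 0.940 (exact p = 0.570). This split by place was added after the pooled shares were seen, and its p-values are not adjusted. The highest motif shares were in common intervals outside promoters, 46.2% of 78 in K562 against 34.0% elsewhere and 40.0% of 80 in HepG2 against 26.1%. The K562 intervals of this kind had a median width of 228 bp (207 bp elsewhere) and the HepG2 ones of 164 bp (168 bp elsewhere). K562-only intervals outside promoters held a motif in 29.4% against 18.5% elsewhere, and those weak in HepG2 in 28.6% against 19.1%. The median widths of these 2 classes were 159 bp (140 bp elsewhere) and 174 bp (151 bp elsewhere). HepG2-only intervals outside promoters held one in 8.94% against 7.44%, and those weak in K562 in 1 of 25 against 12.1% elsewhere. Their median widths were 156 bp (136 bp elsewhere) and 88.0 bp (130 bp elsewhere). The part of width in the motif differences outside promoters was not tested. Common intervals made up 80 of the 228 HepG2 intervals outside promoters here and 356 of 2557 elsewhere, and the part of this class mix in the HepG2 difference was not tested.

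Single regions show the classes. The widest common promoter interval was at CCDC9, an RNA-binding coiled-coil gene, with 1005 bp in K562 (chr19:47759714-47760718) and 1042 bp in HepG2 and 4 motifs. The others among the 5 widest in K562 were at VMAC (777 bp), TSEN34 (758 bp, a tRNA-splicing endonuclease subunit), TOMM40 (757 bp, the mitochondrial import channel) and FBXL12 (755 bp, an F-box protein), with 1, 0, 1 and 0 motifs. In HepG2 the fifth widest was at ASF1B (704 bp), a histone chaperone, with no motif. Wide common intervals outside promoters were nearest to COLGALT1, a collagen galactosyltransferase (819 bp, in a coding exon of the neighbouring UNC13A, 2 motifs), PALM (712 bp, 3 motifs) and NFIC, a transcription factor of the nuclear factor I family (676 bp, in an intron of the neighbouring CELF5, 6 motifs). In HepG2 they were at PALM, MAMSTR and LTBP4, the last in introns with 1 and 0 motifs.

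The widest K562-only promoter interval was at LYL1, a helix-loop-helix transcription factor of blood cells. It spanned 732 bp (chr19:13213428-13214159) with a GC content of 70.8% and 2 motifs, and its centre was 122 bp upstream of the start. ADAMTS10 (465 bp, a metalloprotease gene), MKNK2 (454 bp, a kinase that phosphorylates the cap-binding factor eIF4E), BTBD2 (361 bp) and RFX1 (346 bp, a winged-helix transcription factor) followed, with 0, 2, 0 and 1 motifs. Outside promoters the widest were nearest to RYR1 (599 bp), CLEC11A (519 bp, a haematopoietic growth factor, in a coding exon) and CAMSAP3 (498 bp, a microtubule-end protein, in an intron).

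Among HepG2-only intervals the widest at a promoter was that of SLC27A5 (293 bp, chr19:59023265-59023557, centre 52 bp upstream), followed by C3 (235 bp), CYP4F12 (204 bp, a cytochrome P450 gene), PALM3 (178 bp) and EGLN2 (170 bp, an oxygen-sensing prolyl hydroxylase). Only the CYP4F12 interval held a complete motif among these 5. C3 also had high-confidence intervals of both lines upstream of another annotated start, 302 bp in K562 (chr19:6730504-6730805, 4 motifs) and 446 bp in HepG2 (chr19:6730311-6730756, 3 motifs). Outside promoters the widest HepG2-only intervals were nearest to CDC34 (427 bp, 3 motifs), AC016586.1 (412 bp, 3 motifs) and PEG3 (381 bp, no motif), an imprinted gene.

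Gene groups of the chromosome differed in how many members carried an interval, to be read against 41.8% of all its coding genes in K562 and 35.3% in HepG2. Of 13 ribosomal protein genes 11 carried a high-confidence interval upstream in K562 and 13 in HepG2. The widest interval at these genes held a motif in 0 of 13 in K562 and in 1 of 13 in HepG2. At RPL18, of the large ribosomal subunit, the intervals were 425 bp in K562 and 362 bp in HepG2 with no motif. Of 10 DNA repair and replication genes 9 carried one in K562 and 7 in HepG2, among them LIG1, the replicative DNA ligase, with 2 motifs in each line. Of 20 signalling and transcription genes 17 carried one in K562 and 12 in HepG2. CCNE1, the cyclin of S-phase entry, had a 492 bp interval with 6 motifs in K562 and a 239 bp one with 3 in HepG2, and JUND, an AP-1 factor, had 3 and 2 motifs.

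Genes of liver and blood function were marked differently in single cases. Of 15 liver genes 3 carried a high-confidence interval in K562 and 7 in HepG2. HAMP, the iron hormone hepcidin, ANGPTL8, a lipase regulator, and FCGRT, the neonatal Fc receptor, had HepG2 intervals of 169, 104 and 84 bp and no K562 interval at either confidence. HPN, a membrane serine protease, was high-confidence in HepG2 and lower-confidence in K562, and the apolipoprotein gene APOC2 had a HepG2 lower-confidence interval alone. Of the list, 5 genes had no interval in either line, namely the apolipoprotein genes APOC1 and APOC4, the cytochrome P450 genes CYP2A6 and CYP2B6, and FGF21, a hepatic hormone. Of 15 blood genes 5 carried one in K562 and 4 in HepG2. EPOR, the erythropoietin receptor, was high-confidence in K562 and lower-confidence in HepG2, KLF1, an erythroid transcription factor, had a lower-confidence K562 interval alone, and CEBPA, a transcription factor of liver and myeloid cells, was high-confidence in HepG2 and lower-confidence in K562. CD22, CD33, CD37 and CD79A, surface proteins of blood cells, had none.

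Several gene clusters of the chromosome held few intervals, to be read against the 36.6% of its coding genes that carried none in either line. None of 16 KIR and LILR immune receptor genes, 10 SIGLEC genes or 20 olfactory receptor genes carried an interval of either line. Among 22 PSG and CEACAM genes CEACAM1 alone had one, a 59 bp lower-confidence HepG2 interval. Of 15 kallikrein peptidase genes KLK4, KLK8 and KLK13 carried K562 high-confidence intervals of 261, 246 and 191 bp with no HepG2 interval, and the other 12 carried none.

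The lower-confidence intervals that held no high-confidence interval complete the account. They numbered 981 for K562 and 1319 for HepG2. Among the former 686 (69.9%) overlapped no HepG2 interval, against 66.3% over all nuclear chromosomes, 216 overlapped a lower-confidence HepG2 interval alone and 79 a high-confidence one. Among the latter 875 (66.3%) overlapped no K562 interval, against 76.4%, 222 a lower-confidence one alone and 222 a high-confidence one. Those with no partner were at promoters in 37.3% (33.8 to 41.0) of cases in K562 and 28.8% (25.9 to 31.9) in HepG2, and held a motif in 121 of 686 (17.6%) and 96 of 875 (11.0%). On the other chromosomes the promoter shares were 37.0% and 24.3% and a motif was present in 943 of 6287 and 1105 of 14473. The HepG2 lower-confidence intervals that lay on K562 high-confidence ones were at promoters in 68.5% and held a motif in 32.0%, and the K562 ones on HepG2 high-confidence intervals in 70.9% and 10.1%. Motifs were thus more frequent where K562 was the line with high confidence than where HepG2 was. The same order was found on the other chromosomes, with 32.4% and 16.4%. This pair of shares was not tested, and the 10.1% rests on 8 of 79 intervals.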

How the data were processed

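Chromatin of K562 and HepG2 cells was analysed by G4 ChIP-seq, for which the sample list has 8 libraries, 3 with the antibody and 1 input from each line. Per the study's methods the authors aligned trimmed reads to hg19 with BWA and removed duplicates. MACS2 (q-value limit 0.05) was run replicate by replicate, and bedtools multiinter joined the replicates. The 4 deposited lists hold interval positions in bp and no other value: they carry neither read counts nor peak heights nor the number of supporting replicates. Depth is therefore unknown, no spread between replicates could be computed, and intervals are not replicates of a condition. Single libraries were not used here. Stretches were cut from the overlap of replicate peaks, so narrow intervals can be remnants of wider peaks.

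Intervals were placed on GRCh37 with GENCODE 44 in its GRCh37-lifted form, which is later than the annotation used in the study. Overlap meant at least 1 shared bp. A promoter was the 1 kb upstream of a TSS. The arms were divided at the longest run of undetermined bases. Wilson intervals of shares (95%) cover counting error alone. Two-sided Fisher's exact tests with Woolf intervals for odds ratios were adjusted by the Benjamini-Hochberg method over 9 tests between classes and 6 against the other chromosomes. Named regions were, in each class, the 5 widest at a coding promoter, the 3 widest outside promoters and the one with the most motifs, passing over zinc-finger gene symbols. The 3 fullest steps and the steps with the largest class differences were also named, and group members in the text were chosen after their values were seen. Some members of the gene lists are not reported here by name. Printed stretches are at most 300 bp and avoid untranslated regions. The chromosome, its gene lists and the tests were chosen with earlier results of these data known, and nothing here is independent support for them. Alternatives were other overlap definitions, width minimums of 50 and 100 bp, merging within 100 bp, other TSS sets, other motif definitions and 1 Mb steps. Overlap functions and motif calls were tested on simulated data: 6156 overlap decisions and 4000 motif calls equalled a direct search in 100% of cases. Python 3.11.15, numpy 2.4.6, pandas 2.3.3, scipy 1.17.1, statsmodels 0.14.6 and matplotlib 3.10.9 were used.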

Additional observations from a re-analysis of the deposited data

Results flagged for a closer look

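The cell-line-only intervals of the 2 lines differed in 2 of the 3 measures tested between them on chromosome 19, while the short-arm share gave an odds ratio of 1.02 (Fisher's exact test, adjusted p = 0.926). K562-only intervals were more often at promoters than HepG2-only intervals, with an odds ratio of 1.77 in Fisher's exact test of the difference itself. That odds ratio no longer passed with coding TSSs alone (1.26) or with 50% of both intervals covered (1.10). K562-only intervals also held a complete G4 motif more often, with an odds ratio of 5.02. Both contrasts had the same direction on the other chromosomes, with promoter shares of 55.7% and 29.0% and motif shares of 26.8% and 9.21%.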

How the results depend on the processing

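Over 29 results and 179 alternatives, 149 alternatives were classed as unchanged, and 16 were added after seeing the data. For shares and odds ratios, unchanged meant the same direction and side of the threshold, or a value within the interval. Plain counts have neither an interval nor a threshold, so their class does not carry this meaning. For example, 779 HepG2 high-confidence intervals became 600 without those under 100 bp and were classed as unchanged. Class shares moved with the overlap rule. The K562 common share (48.7%) became 41.7% with 50% of the interval covered, 37.1% with 50% of both, and 53.6% when an interval within 500 bp was accepted, and the K562-only share (29.9%) became 33.7%, 43.9% and, against the high-confidence list alone, 51.3%. In HepG2 the common share (65.3%) became 61.7% and 50.1% under the first 2 rules and 69.7% without intervals under 100 bp, and the HepG2-only share (23.4%) became 42.5% with 50% of both, 20.2% without intervals under 100 bp and 34.7% against the high-confidence list. The K562 motif odds ratio of common against K562-only intervals (1.20) passed the threshold with 50% of both covered (1.41) and with runs of 2 G (1.82), and reversed in 200 bp windows (0.631) and over width classes (0.548). The promoter odds ratio between cell-line-only sets (1.77) no longer passed with 50% of both covered (1.10) or coding TSSs alone (1.26).

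Against the other chromosomes, the K562 motif odds ratio (1.17) no longer passed with runs of 2 G (1.15), in 200 bp windows (1.03) or, as added alternatives, over width classes (1.08) and at promoters (1.10). The HepG2 promoter odds ratio (1.14) passed with coding TSSs (1.18) or both sides of a TSS (1.20) and, in added alternatives, reversed over the overlap classes (0.749) and among common intervals (0.494). The HepG2 motif odds ratio (1.13) passed with loops up to 12 bases (1.18), runs of 2 G (1.44) and outside promoters (2.03, added). In 1 Mb steps, which are smaller by construction, the fullest step held 75 (K562) and 41 (HepG2) high-confidence and 142 and 154 lower-confidence intervals, instead of 110, 62, 213 and 227. The cause of these changes was not tested. No paired analysis was possible because the lists pool all replicates, and for the same reason no replicate could be left out.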

Other observations

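High-confidence intervals of chromosome 19 often lay close together. In K562 the median gap between neighbours was 17552 bp, and 160 gaps were at most 1 kb, while in HepG2 the median gap was 26498 bp, with 95 gaps of that size. Some lower-confidence intervals held several high-confidence ones: 59 in K562 and 48 in HepG2 held at least 2, and up to 4.

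With zinc-finger gene symbols left out, 523 of the remaining 1174 protein-coding genes (44.5%) carried a K562 high-confidence interval upstream, against 33.1% on the other chromosomes, and 413 (35.2%) a HepG2 one, against 28.2%. This count was added after the data had been seen.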
